A study of Mus musculus with 45 samples.

Results

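Meningeal macrophages (mMΦ) and microglia sorted from the embryonic mouse brain at E14.5 were compared across all genes, with 3 libraries of each. Of 53546 genes in the count table, 12528 had enough counts in these 6 libraries to be tested, and the 6 libraries are part of a series of 45 that also holds perivascular macrophages and postnatal ages. All mice were untreated C57BL/6J animals of genotype Cx3cr1GFP/wt, kept specific-pathogen-free, so both groups carry a green fluorescent protein gene in 1 of the 2 copies of the fractalkine receptor gene Cx3cr1. The series describes its libraries as made from individual mice, 3-5 at each age. The E14.5 and P10 libraries used here came from 1 sequencing project, S232. How the cells were gated in the sorter is not given in the sources used here.

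Microglia and the macrophages of the brain's borders both descend from yolk sac macrophages. Microglia live within the neural tissue, where transforming growth factor beta (TGF-beta) signalling and the transcription factor Sall1 maintain their identity, and they clear dying cells and prune synapses. Meningeal macrophages lie in the membranes around the brain beside blood vessels and fibroblasts, and take up material from the surrounding fluid through scavenger and lectin receptors such as Cd163 and Mrc1.

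The 6 libraries held 17308547 to 24245764 counts. The first principal component separated the populations and took 75.8% of the variance, and on the second (9.71%) microglia replicate 1 stood apart from all others. Replicates 1 and 2 of both populations had the RNA of females and replicate 3 that of a male. mMΦ replicate 2 held more RNA of blood cells than the other libraries, with summed erythroid markers at 876 CPM (counts scaled to a common library total) against 92.4 and 121 in the other mMΦ libraries and 32.4 to 132 in microglia. Its neutrophil granule genes were high as well, with Ngp at 59.3 CPM against at most 0.17 in the other 5 libraries. Summed fibroblast and leptomeningeal markers (20 genes) were at 26.7 to 50.2 CPM in mMΦ and 2.96 to 6.08 CPM in microglia, and 11 choroid plexus markers at 40.3 to 44.6 CPM against 0.29 to 2.17 CPM, most of it from Enpp2. Summed lymphoid markers (23 genes) were at 626 to 699 CPM in mMΦ and 875 to 957 CPM in microglia. Ighm made up most of this sum and was lower in mMΦ, at 478 to 575 CPM against 766 to 823 CPM (−0.61 ± 0.09, adjusted p = 0.0021, not called in the 45-library fit), Cd79b was not called, and Cd4 was higher, at 23.9 to 41.3 CPM against 0.39 to 0.70 CPM (5.92 ± 0.40). The T and B cell markers Cd3e, Cd3g, Cd8a, Trac, Trbc2, Cd79a and Igkc had no count in any library. Summed monocyte markers (14 genes) overlapped, at 543.7 to 695 CPM against 448 to 683 CPM. In bulk RNA of sorted cells, fewer cells of a type and less RNA per cell cannot be told apart.

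mMΦ and microglia differed in 2432 genes (19.4% of those tested) at an adjusted p under 0.05 in edgeR's quasi-likelihood test, 1272 higher in mMΦ (10.2%) and 1160 lower (9.26%). The difference was at least 8-fold (3 on the log2 scale) for 300 of the higher and 217 of the lower genes. For 2431 of the 2432 genes the 3 mMΦ values and the 3 microglia values did not overlap, which held for 38.4% of all genes tested. Over the genes tested at E14.5, the common dispersion was 0.13 in mMΦ and 0.154 in microglia at this age, against 1.27 and 1.29 at P56. These genes passed the low-count filter by their E14.5 counts, so genes with few counts at P56 enter the P56 values. The part of this choice of genes in the contrast was not tested. When 1 spread per gene was shared over all 45 libraries, 415 genes were called (2.43% of 17064), 224 higher (1.31%) and 191 lower (1.12%), and 408 of them were among the 2432 in the same direction.

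**Figure D1:**
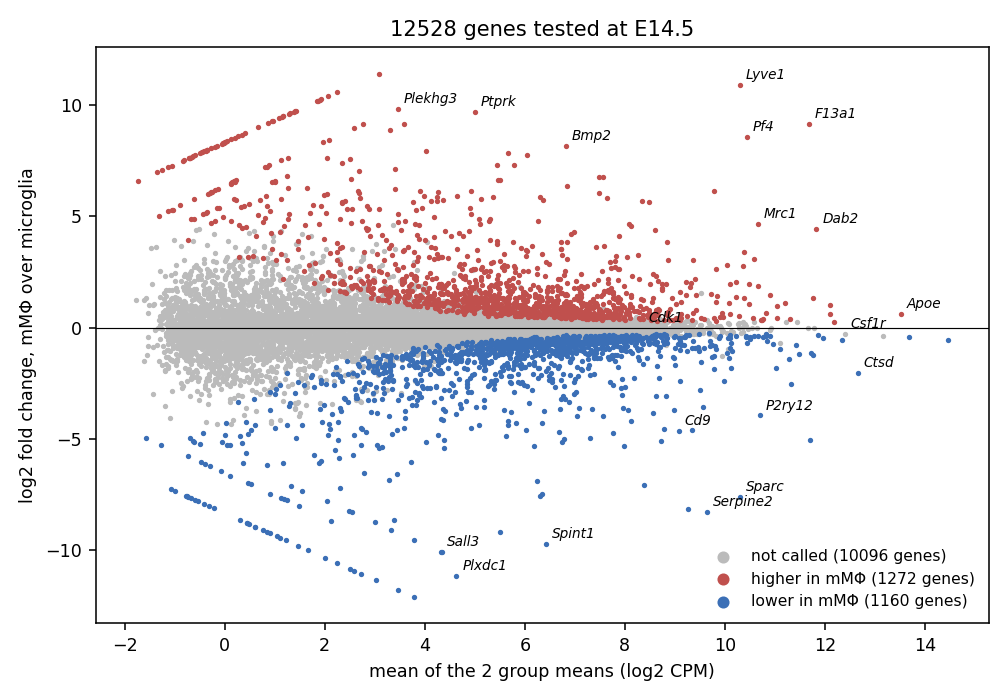
Fitted log2 fold change of mMΦ over microglia at E14.5 (vertical axis) against the mean level of the 2 groups in log2 CPM (horizontal axis) for the 12528 genes tested, with the 1272 genes called higher in red, the 1160 called lower in blue and the others in grey. Lyve1 and Pf4 lie near the top and Plxdc1 and Spint1 near the bottom, and the slanted outer lines of points are genes with no or hardly any counts in 1 group, whose fitted fold change has no exact meaning.

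The sorted populations carried the RNA of their labels. Of 27 tested border macrophage markers, 26 were higher in mMΦ and none lower (median log2 fold change 4.68, against 0.01 over all genes), and of 23 tested microglia markers 21 were lower and none higher (median −3.82). Lyve1, the hyaluronan receptor of lymphatic vessels and border macrophages, was at 2176, 2962 and 2451 CPM in mMΦ and at 1.003, 1.797 and 1.156 CPM in microglia (log2 fold change 10.91 ± 0.24 SE, adjusted p = 6.7e-08). Pf4, the chemokine platelet factor 4, was at 2985, 2684 and 2681 CPM against 8.86, 7.36 and 5.73 CPM, and F13a1, the A chain of clotting factor XIII, at 6373, 6082 and 7152 CPM against 4.40, 21.1 and 8.72 CPM. In all 3 genes the lowest mMΦ library lay far above the highest microglia library. Clec10a, a lectin for galactose-type sugars, reached 90.9 to 110.1 CPM against 0.22 to 0.53 CPM. The border marker without a call was Cd209a, at 0.10 to 1.02 CPM against 0 to 2.17 CPM.

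The transcription factor genes Sall1 and Sall3, with Sparc, a matrix glycoprotein, and Olfml3 led the genes of microglia. Sall1 was at 145, 170 and 166 CPM in microglia and at 0.05, 2.31 and 0.19 CPM in mMΦ (−7.45 ± 0.75, adjusted p = 0.00022). Its relative Sall3 was at 36.3 to 41.6 CPM against 2 counts over the 3 mMΦ libraries, a ratio of 1290.3 with a 95% counting interval of 357 to 10661. Sparc was at 2461, 2458 and 2600 CPM against 7.27, 9.61 and 21.9 CPM, and Olfml3 at 1106 to 1316 CPM against 2.93 to 6.91 CPM. None of these groups overlapped. P2ry12, the purinergic receptor that steers microglial processes, was lower in mMΦ but well above zero there, at 172 to 244 CPM against 3005 to 3218 CPM (−3.94 ± 0.14). Microglia markers without a call were Ltc4s, at 61.8 to 78.3 CPM against 77.6 to 85.9 CPM, and the growth factor receptor gene Csf1r, at 4778 to 5039 CPM against 4754 to 6904 CPM.

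**Figure D2:**
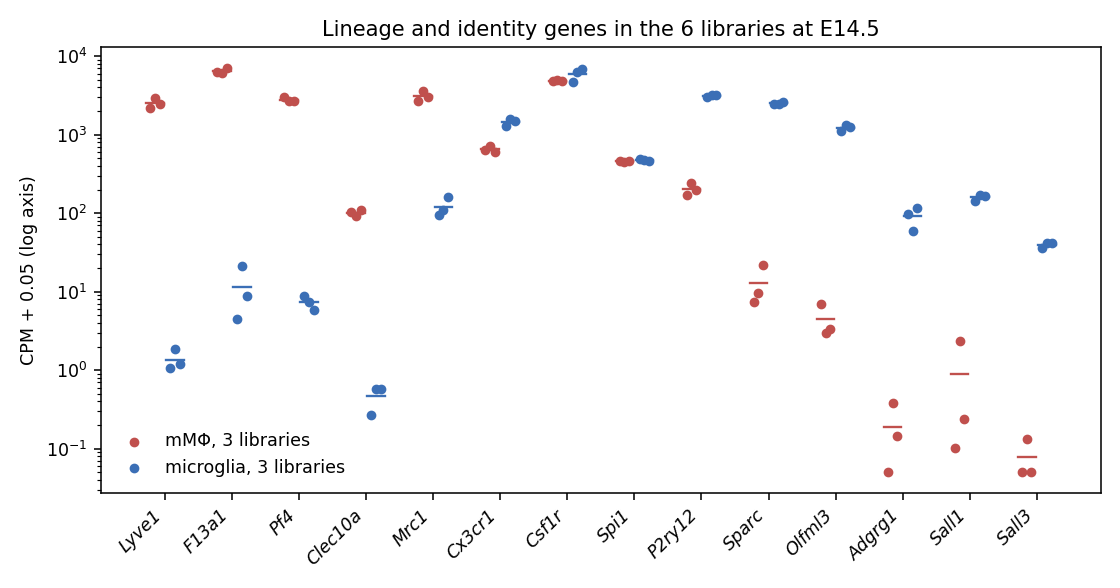
Level of 14 lineage and identity genes (CPM + 0.05, log axis) in the 3 mMΦ libraries (red) and the 3 microglia libraries (blue), each point 1 library and each line the group mean. Lyve1 to Mrc1 are higher in mMΦ in every library, Spi1 and Csf1r overlap between the groups, and P2ry12 to Sall3 are higher in microglia in every library.

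Of 4 lineage genes, Cx3cr1 and Ptprc were lower in mMΦ, and Csf1r and Spi1 were not called. Spi1, which encodes the lineage factor PU.1, was at 449.6 to 466 CPM in mMΦ and 464 to 489 CPM in microglia (−0.06 ± 0.08, adjusted p = 0.67). Cx3cr1 itself was lower in mMΦ, at 602 to 725 CPM against 1296 to 1563 CPM (−1.15 ± 0.10, adjusted p = 0.00013). Ptprc, the pan-leukocyte gene CD45, was at 191 to 225 CPM against 239 to 355 CPM (−0.59 ± 0.16, adjusted p = 0.033), a call lost in 5 of the 6 fits that left out 1 library.

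Among the genes with the largest fold changes, several were without any count in 1 population. In mMΦ these were Fpr1, a receptor for bacterial formyl peptides (7.59 to 13.3 CPM, at least 178-fold higher by a floor of 3 counts over the microglia group), the factor gene Irf4 (5.62 to 11.6 CPM, at least 156-fold), the oxidoreductase gene Steap1 (at least 136-fold), Echdc2 (at least 134-fold), Nipal2 (at least 98.8-fold) and the carrier gene Slc7a13 (at least 96.8-fold). Vsig4, a complement receptor, was at 6.86, 1.53 and 14.4 CPM and Marco, a scavenger receptor, at 3.40, 18.3 and 0.77 CPM, both without a count in microglia. The level of Marco in mMΦ thus lay mostly in replicate 2, the library with the blood cell RNA. Ptprk, a receptor-type phosphatase, was at 59.7, 59.2 and 73.6 CPM against at most 0.11 CPM in microglia (9.69 ± 0.33). Plekhg3 was at 19.9 to 23.8 CPM against 1 count over the microglia group, a ratio of 1233 with a counting interval of 221 to 48726.

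On the microglial side, the genes without any mMΦ count were the sulfotransferase gene Chst1 (19.6 to 23.7 CPM, at least 473-fold lower in mMΦ), the galactosyltransferase gene B3galt5 (at least 350-fold), Vipr1, a receptor for vasoactive intestinal peptide (at least 283-fold), the inhibitory receptor gene Pdcd1 (at least 260-fold), Hspb3 (at least 244-fold), the collagen-uptake receptor gene Mrc2 (at least 204-fold), Unc5cl (at least 136-fold) and Baiap2l2 (at least 119-fold). Plxdc1 was at 44.2, 48.7 and 55.95 CPM in microglia with 1 count in mMΦ (ratio 3233, counting interval 579.8 to 127745). Spint1, an inhibitor of membrane serine proteases, was at 144, 190.4 and 177 CPM in microglia against 0, 0.54 and 0 CPM, and Adgrg1, an adhesion G-protein-coupled receptor, at 59.4 to 115 CPM against 0 to 0.33 CPM. Of the genes with few or no counts in 1 population, and of the lineage genes, Irf4, Vsig4, Marco, Steap1, Echdc2, Vipr1, Pdcd1, Unc5cl, Baiap2l2 and Ptprc were not called with the spread shared over 45 libraries.

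The largest differences between group means in CPM, a scale on which long genes weigh more, were on the mMΦ side those of Dab2, an endocytic adaptor (6557 to 7256 CPM against 304 to 343 CPM), F13a1, the apolipoprotein gene Apoe (13500.1 to 14891 CPM against 8735 to 10173 CPM) and Egr1 (5668 to 6297 CPM against 2310.3 to 3639 CPM), followed by Mrc1, Selenop, Pf4, Lyve1, Fcgrt and Igfbp4. Among the largest on the microglial side were those of Tmsb4x, the actin-binding thymosin beta 4 (24344 to 31026 CPM against 15884 to 22095 CPM), and the lysosomal protease genes Ctsd, Ctsb and Ctss. Some of these abundant genes differed little in fold, as Apoe (0.61 ± 0.08) and Ctsb (−0.40 ± 0.07). Apoe, Egr1, Ctsb and Tmsb4x were not called in the 45-library fit, and the call of Tmsb4x was also lost in 4 of the 6 fits that left out 1 library.

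Transcription factors known from macrophages divided between the populations, with 18 of 62 tested higher in mMΦ, 20 lower and 24 not called. Ahr, the receptor for aromatic ligands, was at 28.2, 26.3 and 17.1 CPM in mMΦ against 2 counts in microglia (ratio 669, counting interval 185 to 5530.1). Irf4, Ahr, Sall1 and Sall3 were the members with the largest differences, and the groups did not overlap in any of them. Nr4a1, an orphan nuclear receptor induced by activation, was at 518 to 659 CPM against 429 to 669 CPM (adjusted p = 0.94), and Mef2c at 394 to 605 CPM against 570.5 to 656 CPM (adjusted p = 0.14). In the 45-library fit 3 of these factors were higher and 4 lower.

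TGF-beta family ligands signal through paired type I and type II receptors to Smad proteins, which induce their own inhibitors, among them Smad7, Skil and Pmepa1. Bmp2, a bone morphogenetic protein, was at 196, 231 and 249 CPM in mMΦ and at 0.11, 0.29 and 1.78 CPM in microglia (8.18 ± 0.56, adjusted p = 2.4e-05). Gdf15, a stress-induced family member, was higher in mMΦ too, at 25.1 to 32.9 CPM against 1.56 to 2.21 CPM (3.92 ± 0.30, adjusted p = 4.3e-05), and Gdf3 lower, at 0.56 to 2.43 CPM against 5.80 to 7.17 CPM (adjusted p = 0.043). Tgfb1, the ligand that microglia depend on, did not pass the test, at 207, 177 and 214 CPM against 118, 156 and 174 CPM (0.42 ± 0.15, adjusted p = 0.10). The other 8 of 12 ligands on the list had too few counts to be tested.

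Of the 12 tested receptors, Tgfbr1, the type I receptor for TGF-beta, differed most. Tgfbr1 was at 74.4, 98.3 and 82.7 CPM in mMΦ against 535, 782 and 807 CPM in microglia (−3.06 ± 0.18, adjusted p = 1.2e-05), so that the highest mMΦ library lay far below the lowest microglia library. Its partner Tgfbr2 overlapped between the groups, at 234 to 264 CPM against 237 to 349 CPM (−0.33 ± 0.15, adjusted p = 0.19). The co-receptor gene Nrp1 was higher in mMΦ, at 630.5 to 712 CPM against 169.7 to 182 CPM (1.94 ± 0.09, adjusted p = 2.7e-06), and the BMP receptor gene Acvr1 lower, at 11.2 to 18.3 CPM against 25.5 to 33.0 CPM (adjusted p = 0.029). Acvrl1, Acvr1b, Acvr2a, Acvr2b, Bmpr1a, Bmpr2, Eng and Neo1 were not called, with log2 fold changes between −0.35 and 0.25.

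Nrros, which anchors latent TGF-beta on myeloid cells, was at 1177, 1266 and 1309 CPM in mMΦ against 457, 631 and 593 CPM (1.16 ± 0.12, adjusted p = 0.00031). Ltbp3, a matrix protein that binds the latent complex, was at 1.17, 7.80 and 3.75 CPM with no count in microglia (at least 79.0-fold higher). The integrin gene Itgav, whose protein takes part in releasing the active ligand, was lower in mMΦ, at 26.8 to 40.8 CPM against 55.7 to 89.2 CPM (−1.08 ± 0.23, adjusted p = 0.011). Thbs1 and the proprotein convertase gene Furin overlapped between the groups and were not called. Higher anchoring and lower integrin RNA thus stood side by side in mMΦ.

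The inhibitors and feedback genes of the pathway were lower in mMΦ as far as they were called, with 1 exception. Pmepa1 was at 5.13, 2.56 and 3.12 CPM in mMΦ against 146, 139 and 141 CPM (−5.30 ± 0.27, adjusted p = 4.0e-06), and Skil, the co-repressor SnoN, at 26.8, 9.37 and 10.9 CPM against 233, 260.2 and 246 CPM (−3.98 ± 0.38). Smad7, the inhibitory Smad of the TGF-beta branch, was at 1.57 to 2.83 CPM against 22.02 to 27.8 CPM (−3.46 ± 0.33, adjusted p = 0.00017). For these 3 genes the groups lay far apart in all libraries. Smad6, the inhibitory Smad of the BMP branch (−2.07 ± 0.56), Ski (−1.004 ± 0.22) and Tgif1 (−0.87 ± 0.13) were also lower. Fstl1, a secreted protein that binds BMPs, was higher in mMΦ, at 6.05, 1.32 and 3.41 CPM against 0.12 to 0.28 CPM (4.28 ± 0.91, adjusted p = 0.012), and is a gene that fibroblasts express strongly. The part of the fibroblast markers in its level was not tested.

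The signal-carrying Smad genes were not called. Smad2 was at 101.7 to 133 CPM in mMΦ against 74.8 to 114 CPM, Smad3 at 19.5 to 27.1 CPM against 19.9 to 25.3 CPM, and Smad4 at 84.5 to 122 CPM against 68.7 to 73.7 CPM (0.49 ± 0.16, adjusted p = 0.062). Smad1, Smad5, Tgif2, Smurf1, Smurf2 and Bambi were likewise uncalled. In the 45-library fit Bmp2, Tgfbr1, Nrp1, Nrros, Ltbp3, Pmepa1 and Skil kept their calls, and Gdf15, Gdf3, Acvr1, Itgav, Smad7, Smad6, Ski, Tgif1 and Fstl1 lost them. The calls of Gdf3, Acvr1, Smad6, Ski and Fstl1 were also lost when 1 of several libraries was left out.

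**Figure D3:**
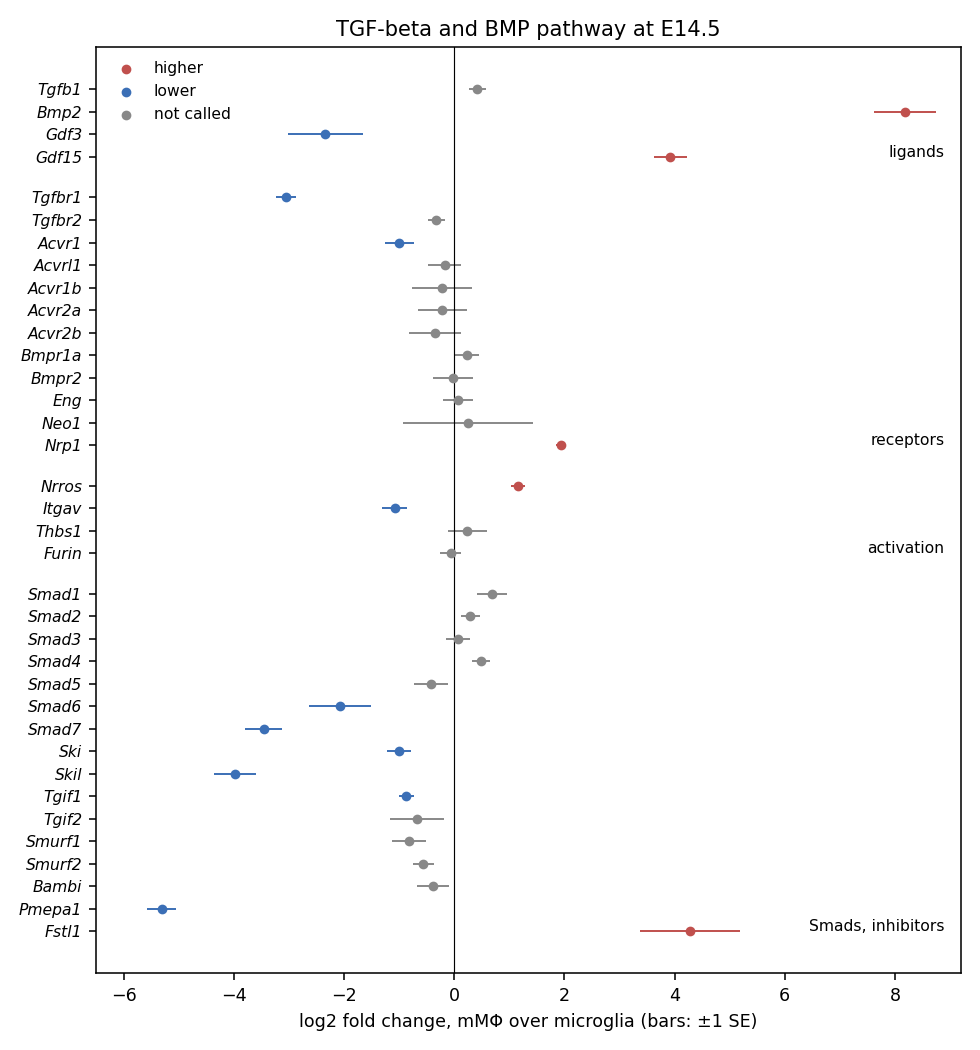
Log2 fold change of mMΦ over microglia with ±1 SE for the tested members of the TGF-beta and BMP pathway, ordered by role and coloured by call (red higher, blue lower, grey not called). Ltbp3, which had no count in microglia, is not drawn. Bmp2 stands at the right, Pmepa1, Skil, Smad7 and Tgfbr1 at the left, and Smad2, Smad3 and Smad4 near 0.

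Chemokine genes were higher in mMΦ for 9 of 17 tested and lower for 4. Besides Pf4, the largest differences were in Cxcl1, a neutrophil attractant (128, 114 and 86.7 CPM against 0.11, 0.87 and 1.06 CPM, 7.29 ± 0.48), Ccl24, an eosinophil attractant (333 to 395 CPM against 3.88 to 8.03 CPM, 6.06 ± 0.29) and Ccl7, a monocyte attractant (339.8 to 420.2 CPM against 3.90 to 10.98 CPM, 5.82 ± 0.35). All 3 mMΦ libraries were above all microglia libraries in these genes. The 4 lower genes, named after their values were seen, were Ccl3, Ccl4, Ccl6 and Cxcl16, with Ccl3 and Ccl4 at 433 to 584 CPM against 1059 to 1494 CPM and 558 to 697 CPM against 1276 to 1928 CPM (both −1.34 ± 0.16, neither called in the 45-library fit). Cxcl10, which is induced by interferon, was at 94.3 to 127 CPM against 61.9 to 99.3 CPM and was not called (adjusted p = 0.21).

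Chemokines of this kind respond within minutes to stimulation, and so do the immediate early genes, of which 20 of 34 tested were higher in mMΦ and 4 lower (median 0.95). Their summed level was 31397 to 32770 CPM in mMΦ and 15152 to 19462 CPM in microglia. Cxcl2, which belongs to both groups, was at 835, 754 and 638 CPM against 31.4, 32.4 and 42.3 CPM (4.39 ± 0.17). Dusp1, a phosphatase that ends kinase signalling, was at 1644 to 2158 CPM against 217 to 300.4 CPM (2.83 ± 0.15), and Fosb at 45.4 to 61.7 CPM against 11.5 to 12.8 CPM (2.12 ± 0.20). Dusp2 (adjusted p = 0.79) and Btg2 (adjusted p = 0.13) were not called. Whether the chemokine differences depend on the same response was not tested. In the 45-library fit 6 immediate early genes were higher and 1 lower.

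Of 31 cytokine and growth factor genes, 11 were higher in mMΦ and 8 lower. The members with the largest differences were all microglial. Il1a, interleukin 1 alpha, was at 30.8, 44.7 and 11.4 CPM in mMΦ against 411, 640.4 and 532 CPM (−4.18 ± 0.45, adjusted p = 0.00031), Pdgfb at 1.32 to 4.67 CPM against 32.0 to 44.8 CPM (−3.76 ± 0.45), and Csf1, the growth factor for macrophages, at 9.96, 10.1 and 0.05 CPM against 187, 268 and 184 CPM (−4.98 ± 0.88, adjusted p = 0.0046). The other interleukin 1 gene, Il1b, overlapped, at 160.2 to 216 CPM against 127 to 286 CPM (−0.20 ± 0.27, adjusted p = 0.68), and so did the growth factor gene Grn. Of 43 tested chemokine and cytokine receptors, 11 were higher and 9 lower. Gfra2, a co-receptor for neurturin, was at 7.26 to 21.9 CPM in mMΦ with 1 count in microglia, and Ccr3, a receptor for Ccl24, at 4.37 to 11.3 CPM against 0 to 0.34 CPM (5.97 ± 1.17). Il7r was at 6.21 to 16.9 CPM in microglia with 2 counts in mMΦ (ratio 366, counting interval 101 to 3029.6). Csf1 lost its call in the 45-library fit.

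Of 24 tested C-type lectins 15 were higher and 2 lower (median 3.82), with Clec10a, Mgl2 (73.0 to 102.2 CPM against 0.29 to 1.85 CPM, 6.62 ± 0.53) and thrombomodulin, Thbd (17.1 to 26.1 CPM against 0.10 to 0.17 CPM, 7.13 ± 0.45), as the largest. Mrc1, the mannose receptor, was at 2704, 3568 and 3012 CPM against 93.8, 111 and 159.9 CPM (4.67 ± 0.22), while its relative Mrc2 was at 8.86 to 9.91 CPM in microglia with no count in mMΦ. Of 13 scavenger receptors 6 were higher and 3 lower. The haemoglobin receptor gene Cd163 was at 81.7, 88.0 and 88.2 CPM against 0.39, 0.81 and 0.43 CPM (7.30 ± 0.28), Msr1 at 368 to 386 CPM against 0.70 to 5.63 CPM (6.76 ± 0.50) and Colec12 at 557 to 692 CPM against 4.12 to 16.9 CPM (5.69 ± 0.46). Cd68 overlapped between the groups and was not called (adjusted p = 0.18). Among these lectins and scavenger receptors the 45-library fit called 12 and 5 higher and 2 and 2 lower.

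Of 24 receptors for dying cells and related phagocytosis genes 11 were lower in mMΦ and 7 higher (median −0.31). Havcr2, the phosphatidylserine receptor TIM-3, was at 3.34 to 9.47 CPM in mMΦ against 169 to 246 CPM (−5.12 ± 0.37). Its family member Timd4 had the opposite pattern, at 55.5, 49.5 and 70.2 CPM against 0, 3.19 and 1.06 CPM (5.38 ± 0.85, adjusted p = 0.0026). The integrin gene Itgb3 was at 20.7 to 22.7 CPM in microglia against 0, 0.62 and 0 CPM (−6.58 ± 1.01). Sirpa, the receptor for the signal against being eaten, was abundant in both, at 1568 to 1689.7 CPM against 1746 to 2154 CPM (adjusted p = 0.079).

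Of 31 Fc receptors and immunoglobulin-type lectins, 8 were higher and 8 lower in mMΦ. Siglec1, which binds sialylated particles, was at 58.0, 103 and 68.6 CPM against 3.57, 0.23 and 3.90 CPM (4.88 ± 0.69), while Siglech was at 33.6 to 40.8 CPM against 820.5 to 872 CPM (−4.54 ± 0.12) and the collagen receptor gene Lair1 at 8.41 to 26.6 CPM against 389 to 456 CPM (−4.71 ± 0.38). The immunoglobulin G receptors Fcgr3 and Fcgr1 were not called. Among 33 innate sensors 10 were higher and 5 lower. Tlr8, a sensor of RNA, was at 25.2 to 39.0 CPM against 0 to 0.29 CPM (7.93 ± 0.65), and Tlr5, the flagellin receptor, at 25.3 to 28.7 CPM against 0 to 1.40 CPM (5.65 ± 0.96), whereas Tlr12 was at 8.14 to 9.78 CPM in microglia with 1 count in mMΦ. Tlr2 and the trafficking protein gene Unc93b1 were at similar levels and were not called (adjusted p = 0.21 and 0.27). Of 17 complement genes 5 were higher and 6 lower, led by properdin, Cfp, at 397, 318 and 348 CPM against 3.23, 3.94 and 2.60 CPM (6.77 ± 0.19), and by the complement receptor subunit genes Itgam, at 16.1 to 19.8 CPM against 99.7 to 142 CPM (−2.79 ± 0.18), and Itgax, at 2 counts against 17.6 to 23.9 CPM. Itgb3 and Itgax lost their calls in the 45-library fit.

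Integrins and adhesion molecules were lower in mMΦ for 18 of 33 tested and higher for 7 (median −0.83). The tetraspanin gene Cd9 was at 36.4, 52.3 and 35.1 CPM in mMΦ against 1113, 1039 and 972 CPM (−4.66 ± 0.18, adjusted p = 8.0e-07). Cd93, a receptor shared with endothelial cells, was higher in mMΦ, at 9.23 to 17.1 CPM against 0 to 0.23 CPM (7.05 ± 0.83). Summed endothelial markers (18 genes) were at 130.4 to 167 CPM in mMΦ and 44.9 to 70.9 CPM in microglia, led by Pltp and Egfl7, and their part in Cd93 was not tested. Itgb1 overlapped between the groups, at 695 to 718 CPM against 614 to 884 CPM.

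Of 32 matrix genes 9 were higher and 8 lower in mMΦ (median 0.50). Npnt, the integrin ligand nephronectin, was at 143, 144 and 182 CPM in microglia against 0, 2.27 and 0.05 CPM (−7.54 ± 0.86). Of 30 matrix proteases and inhibitors 15 were lower in mMΦ and 6 higher (median −0.50). Serpine2, an inhibitor of thrombin and plasminogen activators, was at 1533, 1585 and 1688 CPM in microglia against 6.15, 6.39 and 2.93 CPM in mMΦ (−8.27 ± 0.28, adjusted p = 5.9e-07). Serpinb8 had the opposite pattern, at 81.4 to 95.4 CPM in mMΦ against 0.19 to 2.03 CPM (6.64 ± 0.59). None of these 3 groups overlapped. The 9 higher genes included Col1a1, Col1a2, Col3a1 and Dcn, named after their values were seen, which fibroblasts express, and the summed fibroblast markers were higher in all mMΦ libraries, as given above. Their part was not tested, and in the 45-library fit no matrix gene was called higher.

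Clotting genes gave opposite signs within 1 cascade. F13a1, which cross-links fibrin, Thbd, which turns thrombin toward inhibition, and S100a10, a plasminogen receptor subunit (70.6 to 75.5 CPM against 11.4 to 18.7 CPM, 2.38 ± 0.22), were higher in mMΦ, and Serpine2 was lower. In all 4 of 14 tested members were higher (with Anxa2) and 3 lower (with Pros1 and F2r), the genes in brackets being named after their values were seen. Tfpi and Plaur were not called. Of 25 guidance receptors and ligands 6 were higher and 7 lower. Plxdc2 was at 7.88 to 19.5 CPM in mMΦ against 428 to 578 CPM (−5.33 ± 0.35), alongside Plxdc1. Plxnb2 was not called (adjusted p = 0.13).

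G-protein-coupled receptors were lower in mMΦ for 16 of 40 tested and higher for 9. P2ry13 followed P2ry12, at 157 to 205 CPM against 767 to 1026 CPM (−2.40 ± 0.15), and P2ry6, the receptor for uridine diphosphate, overlapped, at 322 to 356 CPM against 298 to 349 CPM (adjusted p = 0.82). Adgre1, which encodes the macrophage marker F4/80, overlapped as well, at 1350.3 to 1526 CPM against 1079 to 1417 CPM. Of 13 genes that handle nucleotides and adenosine, 3 were higher and 2 lower. Cd38, which breaks down nicotinamide adenine dinucleotide, was at 133, 188 and 147 CPM in mMΦ against 5.13, 0.75 and 2.12 CPM (5.87 ± 0.53, adjusted p = 0.00012). Entpd1, which degrades extracellular ATP, was lower, at 191 to 245 CPM against 334 to 396 CPM (−0.80 ± 0.12), though not in the 45-library fit.

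Of the genes of class I antigen presentation, H2-D1 was at 906, 879 and 861 CPM in mMΦ against 329, 292 and 327 CPM (1.48 ± 0.08, adjusted p = 8.3e-06), and H2-K1 at 311 to 363 CPM against 133 to 189 CPM (1.03 ± 0.14). In all, of 17 class I genes 3 were higher (with Tap1), 2 lower (Mr1 and, named after its value was seen, B2m) and 12 not called (median 0.17), among them Tapbp and Psmb8. The calls of Tap1, Mr1 and B2m were lost in the 45-library fit, and those of Tap1 and Mr1 also on leaving out 1 of several libraries. Of 12 class II genes 7 were lower in mMΦ and 1 higher (median −2.52), the higher one being the co-stimulator gene Cd86, named after its value was seen. H2-DMa, which loads peptides on class II molecules, was at 5.89, 6.97 and 8.17 CPM against 97.4, 100.5 and 96.8 CPM (−3.81 ± 0.18, adjusted p = 3.4e-06). The class II gene H2-Aa itself was low in both, at 0.29 to 0.86 CPM in mMΦ and 17.8, 2.55 and 1.59 CPM in microglia, with the highest value in microglia replicate 1. Its call (adjusted p = 0.047, −3.47 ± 1.02) was lost without that library (−1.66) and without each mMΦ library in turn. The invariant chain gene Cd74 was at 37.3 to 48.0 CPM against 29.5 to 37.6 CPM and was not called (adjusted p = 0.18). In the 45-library fit 3 class II genes were lower and none higher. The Ms4a membrane proteins were higher in mMΦ for 7 of 8 tested, led by Ms4a7 (444 to 568 CPM against 20.2 to 20.6 CPM, 4.68 ± 0.13) and Ms4a4a (413 to 464 CPM against 24.0 to 27.8 CPM, 4.10 ± 0.11).

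Interferon-response genes were higher in mMΦ for 34 of 49 tested and lower for 1 (median 1.85). Type I interferon acts through a complex that holds Stat2 and Irf9 and binds the interferon-stimulated response element. Oas2, a sensor of double-stranded RNA, was at 36.4, 43.0 and 32.4 CPM in mMΦ against 0.06, 0.52 and 1.25 CPM (5.88 ± 0.67, adjusted p = 0.00044). The GTPase gene Ifi47 was at 84.6, 63.2 and 78.6 CPM against 1.73, 1.45 and 4.77 CPM (4.81 ± 0.44, adjusted p = 0.00013). The groups lay apart in both genes. Gbp3 was at 36.5 to 50.6 CPM against 23.7 to 49.0 CPM and was not called (adjusted p = 0.92). Oas2 and Ifi47 were not called in the 45-library fit. The 1 lower gene was Ly6e, named after its value was seen, at 492 to 578 CPM against 965 to 1048 CPM. Without mMΦ replicate 2, 27 were higher, while the higher calls over all genes fell from 1272 to 904. The higher calls over all genes fell to 906 and 899 without mMΦ replicates 1 and 3. The part of replicate 2 in the interferon-response count was not tested. In the 45-library fit 10 interferon-response genes were higher, so their count differed with the libraries and the fit used. Oas1a and Oas1g, and Ifit3 and Ifit3b, are closely similar copies whose counts may be divided between them. The Gbp and Ifi200 genes are families of related genes, in which reads of shared stretches may be divided as well.

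Short stretches of promoter are shown here because interferon-response genes stood together on the mMΦ side. Promoter sequences, from 250 bases before to 50 bases after the start of each transcript, came from RefSeq on GRCm38.p6, and 35 of the 49 tested members had one. The core of the response element, GAAA, any 2 bases and GAAA again on either strand, was present in 16 of the 26 higher members with a promoter and in 7 of the 9 uncalled members, against 3.99% of all 27025 genes with a promoter. The motif was thus common in the list whether or not a member was called. A match is a description of the letters and not a binding site. In the 8 examples the core is in capitals with 20 bases on each side, read on the strand of the gene, and all lie upstream of the start.
Ifi203, chr1:173942498-173942547, minus strand, 25 bases before the start: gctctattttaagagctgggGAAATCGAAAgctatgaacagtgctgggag
Ifi207, chr1:173741821-173741870, minus strand, 31 bases before the start: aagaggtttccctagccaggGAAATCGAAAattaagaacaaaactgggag
Ifit3, chr19:34583387-34583436, plus strand, 112 bases before the start: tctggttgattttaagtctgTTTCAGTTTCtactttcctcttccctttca
Gbp7, chr3:142530263-142530312, plus strand, 43 bases before the start: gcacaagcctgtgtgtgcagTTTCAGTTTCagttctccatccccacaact
Isg15, chr4:156200855-156200904, minus strand, 56 bases before the start: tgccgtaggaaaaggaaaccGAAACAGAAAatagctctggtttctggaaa
Bst2, chr8:71537567-71537616, minus strand, 114 bases before the start: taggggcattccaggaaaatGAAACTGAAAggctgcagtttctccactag
Stat2, chr10:128270256-128270305, plus strand, 212 bases before the start: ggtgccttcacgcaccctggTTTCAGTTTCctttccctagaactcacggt
Igtp, chr11:58199502-58199551, plus strand, 24 bases before the start: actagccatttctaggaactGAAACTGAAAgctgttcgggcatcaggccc

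These 8 genes were all higher in mMΦ, and the size of the difference varied widely among them. Ifi207 was at 293, 367 and 299 CPM against 30.4, 20.1 and 27.1 CPM (3.63 ± 0.18), and its neighbour Ifi203 at 5.77 to 10.5 CPM against 0.05 to 0.93 CPM (3.97 ± 0.89). Ifi203 and Ifi207 carry the same 10 letters in the core. Ifit3, at 32.2, 18.8 and 10.7 CPM against 2.38 to 3.85 CPM (2.73 ± 0.46), and Isg15, at 10.3 to 18.8 CPM against 2.79 to 5.28 CPM (1.68 ± 0.40), were among the most variable of the 8 in mMΦ, where replicate 1 was the highest in both. Gbp7 (1.76 ± 0.20), Bst2 (1.25 ± 0.11), Stat2 (1.21 ± 0.21) and Igtp (0.59 ± 0.17) differed less. Ifit3, Isg15, Gbp7, Stat2 and Igtp were not called in the 45-library fit, and the calls of Ifi203, Isg15 and Igtp were lost on leaving out 1 or more libraries. These 8 genes were chosen after their values were seen.

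Lysosomal genes were lower in mMΦ for 16 of 41 tested and higher for 5, and 9 were lower and 2 higher in the 45-library fit. Ctsd was at 2572, 2676 and 2424 CPM in mMΦ against 10341, 10226 and 10628 CPM (−2.02 ± 0.07), Ctss at 717 to 821 CPM against 3968 to 4624 CPM (−2.53 ± 0.09), and Arsb, the sulfatase for dermatan sulfate, at 69.0 to 77.4 CPM against 825 to 1071 CPM (−3.70 ± 0.12). These are proteases and sugar-degrading enzymes of the lysosome, and each was lower in every mMΦ library. Grn and the protective protein gene Ctsa were not called (adjusted p = 0.96 and 0.081).

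Of 24 glycolysis genes 11 were lower in mMΦ and 2 higher (median −0.64). Ldhb, a lactate dehydrogenase subunit, was at 11.9, 8.95 and 8.36 CPM against 369, 291 and 259 CPM (−4.98 ± 0.20, adjusted p = 1.3e-06), and its partner Ldha at 684 to 796 CPM against 1328 to 1689 CPM (−1.02 ± 0.11). The glucose carrier gene Slc2a1 was at 29.3 to 40.2 CPM against 148 to 209.7 CPM (−2.35 ± 0.18), and the lactate exporter gene Slc16a3 at 18.2 to 24.5 CPM against 184 to 237 CPM (−3.36 ± 0.17). Of 42 nuclear genes of mitochondrial respiration 39 were not called, 2 were higher and 1 lower (median −0.06), and Atp5b was at 1786 to 1907 CPM against 1921 to 2042 CPM (adjusted p = 0.29). The difference between the glycolysis and respiration lists was not tested. In the 45-library fit 6 glycolysis genes were lower, without Slc2a1 and Slc16a3.

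Cholesterol synthesis genes were lower in mMΦ for 12 of 24 and higher for none (median −1.01). Msmo1 was at 31.1, 32.4 and 39.1 CPM against 129.8, 98.7 and 132 CPM (−1.81 ± 0.17, adjusted p = 0.00014), and Sqle, the squalene epoxidase, at 11.1 to 13.97 CPM against 35.2 to 54.0 CPM (−1.81 ± 0.24). Groups did not overlap in either gene. The sterol isomerase gene Ebp was not called (adjusted p = 0.62). Msmo1 alone kept its call in the 45-library fit. Of 30 lipid transport genes 11 were higher and 7 lower (median 0.13). The fatty acid receptor gene Cd36 was at 678, 781 and 647 CPM in mMΦ against 9.81, 16.9 and 15.8 CPM (5.63 ± 0.22). Lpl overlapped, at 417 to 615 CPM against 519 to 590.3 CPM. Of 17 eicosanoid enzymes 3 were higher and 3 lower. The inducible cyclooxygenase gene Ptgs2 was at 77.7 to 88.4 CPM against 9.44 to 14.3 CPM (2.83 ± 0.20) and the constitutive Ptgs1 at 332 to 409 CPM against 958 to 1203 CPM (−1.56 ± 0.12), opposite signs in 2 enzymes for the same step. Ptgs2 lost its call in the 45-library fit.

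Iron and haem handling genes were higher in mMΦ for 12 of 21 and lower for 2 (median 0.72). Slc40a1, the iron exporter ferroportin, was at 2200.1, 2569 and 2086 CPM against 289, 315 and 386 CPM (2.79 ± 0.13), biliverdin reductase B, Blvrb, at 380.5 to 446 CPM against 39.8 to 46.5 CPM (3.23 ± 0.12), and the ferroxidase gene Cp, ceruloplasmin, at 24.0 to 34.7 CPM against 0.14 to 0.73 CPM (6.12 ± 0.52). In mMΦ replicate 2, the library with the most erythroid RNA, Slc40a1 was the highest of the 3 mMΦ libraries, Cp the lowest and Blvrb between the others. The part of erythroid RNA in these genes was not tested. Hmox1, which opens the haem ring, varied more than any of them, at 1488, 544 and 1277 CPM in mMΦ and 126, 421 and 584 CPM in microglia, and was not called (1.55 ± 0.53, adjusted p = 0.081). Its lowest mMΦ value was that of replicate 2.

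Sugar-building enzymes, channels and carriers were mixed. Of 46 glycan enzymes 8 were higher and 15 lower, with Chst1 and B3galt5 in microglia alone and Cmah, which makes N-glycolylneuraminic acid, at 66.9 to 97.0 CPM in mMΦ against 0.17 to 3.23 CPM (5.88 ± 0.71). Of 34 ion channel genes 5 were higher and 8 lower. Tmc7 was at 17.8 to 26.7 CPM in microglia with 3 counts in mMΦ (ratio 445, counting interval 152 to 2162.7). Of 39 nutrient carriers 7 were higher and 12 lower, among them the fructose carrier gene Slc2a5, at 17.3 to 27.9 CPM against 343 to 369 CPM (−3.98 ± 0.18). Of 27 Wnt and Notch genes 5 were higher and 6 lower, and none was called in the 45-library fit.

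Closely related genes were on the same side in some pairs and not in others. Maf, a factor of tissue macrophages, was higher in mMΦ, at 516, 458 and 494 CPM against 330.5, 309 and 273 CPM (0.69 ± 0.10, adjusted p = 0.0017). Klf2 was lower, at 167 to 239.5 CPM against 462 to 584 CPM (−1.37 ± 0.16), and Klf4 was not called, at 3.15 to 6.19 CPM against 3.54 to 6.41 CPM. Mrc1 and Mrc2 were on opposite sides, and Sall1 with Sall3, Ldha with Ldhb, Plxdc1 with Plxdc2 and P2ry12 with P2ry13 on the same side. Spint2 was under 1.1 CPM in all 6 libraries and was not tested. Maf and Klf2 lost their calls in the 45-library fit.

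**Figure D4:**
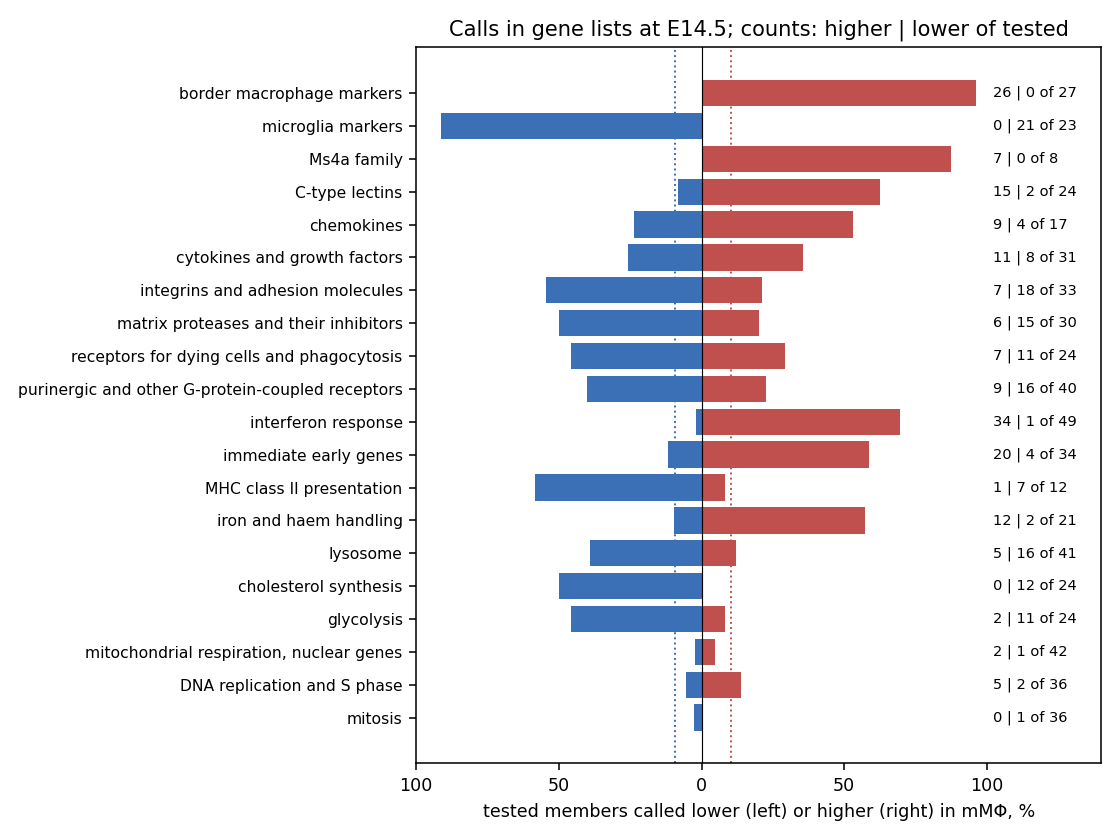
Share of the tested members of 20 gene lists called higher (red, right) or lower (blue, left) in mMΦ at E14.5, with the counts at the right edge; the dotted lines mark the shares over all genes tested, 10.2% higher and 9.26% lower. Border macrophage markers, Ms4a genes, C-type lectins and interferon-response genes extend to the right, microglia markers, adhesion molecules, class II and cholesterol synthesis genes to the left, and mitosis and respiration genes have hardly any bar.

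Both populations carried the RNA of dividing cells at E14.5. Of 36 mitosis genes 35 were not called and 1 was lower in mMΦ (median 0.02). Of 36 replication and S phase genes 29 were not called, 5 were higher (13.9%) and 2 lower (5.56%). These S phase shares were near those over all genes tested, 10.2% higher and 9.26% lower. Cdk1, the mitotic kinase gene, was at 333, 322 and 322 CPM in mMΦ and 369, 297 and 317 CPM in microglia (−0.01 ± 0.10, adjusted p = 0.98). Top2a was at 226, 252 and 336 CPM against 324, 378 and 322 CPM (−0.33 ± 0.15, adjusted p = 0.18), and Mcm5, a subunit of the replication helicase, at 377 to 459 CPM against 342 to 369.7 CPM (0.21 ± 0.10, adjusted p = 0.18). The groups overlapped in Cdk1 and Top2a and lay close together in Mcm5. The 1 lower mitosis gene was the checkpoint kinase gene Bub1, at 76.8 to 87.2 CPM against 98.4 to 130.5 CPM (−0.50 ± 0.14, adjusted p = 0.037). Among regulators of the cycle, the factor gene E2f2 was lower in mMΦ (2.81 to 4.57 CPM against 14.9 to 26.6 CPM, −2.54 ± 0.35), and Ccnd2, a D-type cyclin, was higher (37.2 to 52.7 CPM against 10.2 to 12.6 CPM, 2.06 ± 0.22). The cyclin-dependent kinase inhibitor gene Cdkn1a was higher as well (226 to 243 CPM against 99.2 to 131 CPM, 1.02 ± 0.12). Bub1, E2f2, Ccnd2 and Cdkn1a were not called in the 45-library fit, and Bub1 also lost its call on leaving out 1 of several libraries.

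To compare these differences between ages, the E14.5 difference was set against that at P10 in 1 model of 12 libraries. The 2 differences were unequal for 1194 of 13972 genes (8.55%), with the E14.5 difference above that at P10 for 595 (4.26%) and below for 599 (4.29%). Of the 1272 genes higher in mMΦ at E14.5, 844 were called higher at P10 too, 19 were called lower and 409 were not called. Of the 1160 lower genes, 708 were called lower at P10, 47 higher and 405 not. Over all 13972 genes of this model, 4007 (28.7%) were called at P10 in either direction. The E14.5 libraries enter both sets of calls. The P10 libraries of both populations all had the RNA of males, while at E14.5 replicates 1 and 2 of both had that of females. Age and the mix of sexes thus differed together, and the part of sex was not tested.

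Cell cycle genes differed between the populations at P10. At that age, when 28.7% of genes were called in either direction, 33 of the 36 mitosis genes and 24 of the 36 S phase genes were lower in mMΦ, and the E14.5 difference was above that at P10 for 29 and 20 of them and below for none. Summed mitosis genes, with all 12 libraries on 1 scale, were at 3883 to 4293 CPM in mMΦ and 4026 to 4188 CPM in microglia at E14.5, and at 620.2 to 886 CPM and 2848 to 3258 CPM at P10. Top2a was at 249 ± 53.7 CPM (SD, n = 3) in mMΦ and 309 ± 28.2 CPM in microglia at E14.5, and at 19.6 ± 12.01 and 215 ± 19.4 CPM at P10 (difference of log2 fold changes 3.14 ± 0.55, adjusted p = 0.0038). The P10 gap thus lay mostly in lower mMΦ values. With P3 in place of P10 (3 mMΦ and 2 microglia libraries), and likewise in the 45-library fit, none of the mitosis or S phase genes passed this test.

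Immediate early genes went the other way. The E14.5 difference was below that at P10 for 20 of 34, against 4.29% of all genes in this model. At P10 31 were higher in mMΦ, against 20 at E14.5. Over all genes tested, 28.7% were called at P10 and 19.4% at E14.5 in either direction. The same shares belong beside the border marker and class II counts that follow. The summed level of the immediate early genes on the 12-library scale was 29012 to 29987 CPM in mMΦ and 13641 to 17753 CPM in microglia at E14.5. At P10 it was 39901 to 46894 CPM and 9654 to 13354 CPM. Of the 27 border markers all were higher in mMΦ at P10, and for 17 the E14.5 difference was below and for 4 above. Cd163, for example, had a log2 fold change of 7.32 at E14.5 and 11.41 at P10 in the 12-library model. Of 12 class II genes 7 were lower in mMΦ at E14.5, while at P10 6 were higher and 4 lower: H2-Aa was at 0.60 ± 0.30 CPM in mMΦ and 6.59 ± 8.17 CPM in microglia at E14.5, and at 64.3 ± 29.3 and 2.54 ± 1.82 CPM at P10. Markers of other cells differed at P10 as well, with summed fibroblast markers at 173 to 432.5 CPM in mMΦ and 14.2 to 22.3 CPM in microglia and endothelial markers at 710.5 to 812.8 CPM and 80.2 to 88.2 CPM. Summed monocyte markers were at 725, 1571 and 1817 CPM in mMΦ and 132 to 194 CPM in microglia at P10, and on the same scale at 497 to 638 CPM and 403 to 623 CPM at E14.5. The part of these cells in the immediate early, border marker and class II differences was not tested. With P3 in place of P10 no immediate early gene passed this test, and in the 45-library fit 1 did.

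**Figure D5:**
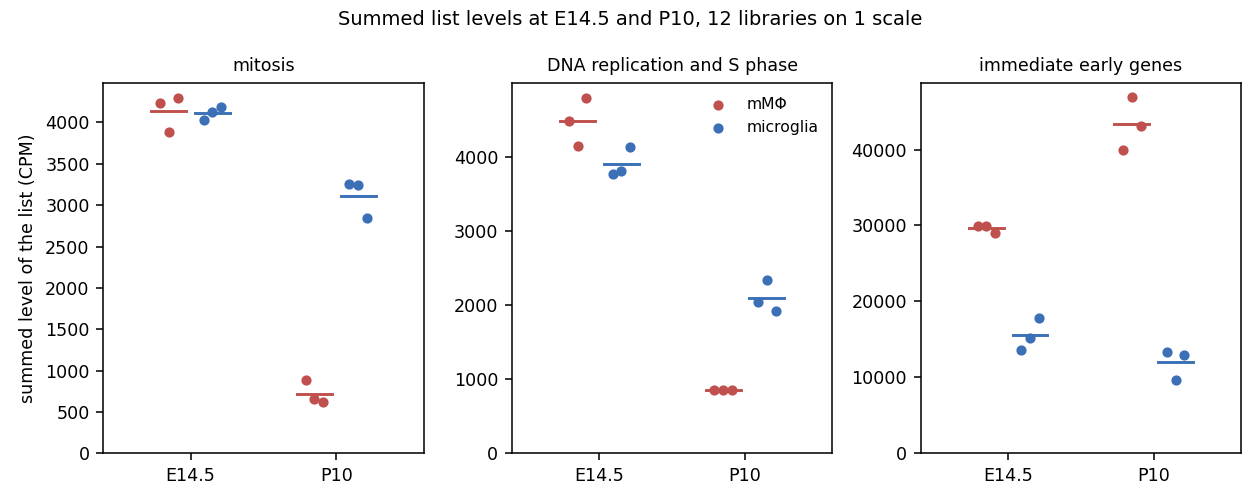
Summed level in CPM of the mitosis, the replication and S phase and the immediate early gene lists in mMΦ (red) and microglia (blue) at E14.5 and P10, each point 1 of 3 libraries and each line the group mean, with all 12 libraries on 1 scale. The mitosis sums overlap at E14.5 and lie at 620.2 to 886 CPM in mMΦ against 2848 to 3258 CPM in microglia at P10, while the immediate early sums lie further apart at P10.

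Several genes with the largest differences between the ages had no counts in 1 population at P10. Kntc1, a spindle checkpoint gene, was at 18.1 ± 6.71 CPM in mMΦ and 17.3 ± 4.26 CPM in microglia at E14.5, and at 0 and 9.94 ± 7.56 CPM at P10. Tspan32, a tetraspanin of blood cells, was at 11.2 ± 2.49 and 46.5 ± 6.29 CPM at E14.5 and at 0 and 35.4 ± 3.02 CPM at P10. The other genes with the largest differences in this direction were Slc39a12, Nhlrc1, Aunip, Zfp783, Pidd1 and Pvrig. Cd28, known as a co-stimulator of T cells, was at 46.0 ± 5.41 CPM in mMΦ and 25.4 ± 2.60 CPM in microglia at E14.5, with Cd3e and Trac at 0, and at 33.5 ± 10.2 and 0.02 ± 0.03 CPM at P10. The E14.5 calls of Tspan32 and Cd28 were absent from the 45-library fit, and that of Cd28 was lost without mMΦ replicate 2. The activation receptor gene Cd40 was at 2.67 ± 1.65 and 1.05 ± 1.02 CPM at E14.5 and at 37.5 ± 9.50 and 0 CPM at P10. Bhlhe40, Il1rn, Retnla, Unc5cl, Mog and Apod were the others with the E14.5 difference furthest below that at P10. Retnla was at 325 ± 199.9 CPM in mMΦ at P10 and under 0.35 CPM in all E14.5 libraries, and Mog and Apod are genes of oligodendrocytes and of fibroblasts, whose part in the P10 values was not tested.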

How the data were processed

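Libraries were made from RNA of sorted cells with a SMARTer Ultra Low v4 and Nextera XT protocol, which does not mark strand, per the labels' protocols. Reads were processed by the authors with bcl2fastq 2.18, STAR 2.7.8a and featureCounts 2.0.2, per the submitters' processing notes. The deposited values are raw counts per gene. The genome build, annotation and strand setting of the counting have no statement in the sources used here.

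The 6 E14.5 libraries were tested with edgeR 4.0.16 (R 4.3.3): genes passed a filter on low counts, totals were scaled by TMM, and the quasi-likelihood F test was adjusted by Benjamini-Hochberg over all genes tested, with calls at 0.05. Values are CPM on TMM-scaled totals, shown per library, and depend on gene length, so that genes ranked by their difference in CPM are ordered by read share, not by transcript number. Fold changes are log2 values of mMΦ over microglia, with SE from the test statistic. Where a group had no counts a bound from 3 counts over the group is given, and with 1 to 3 counts a ratio with its exact 95% interval, which covers counting error only. The interaction with P10 was fitted on 12 libraries. The scripts were tested on simulated data, where 27 of 67 genes changed 2-fold and 52 of 66 changed 8-fold were called in the E14.5 comparison. There 10 of 133 calls were false. For the interaction with P10, 8 of 67 genes changed 2-fold and 38 of 66 changed 8-fold were called, and 9 of 85 calls were false. Alternatives were DESeq2 1.42.0, limma 3.58.1, other scaling, no filter, a shared spread over 45 libraries, a replicate block, P3 in place of P10, and each library left out.

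The members and gene lists were chosen with earlier results of these data known. Named genes were the 15 called genes in each direction with the largest fold change and the 10 with the largest CPM difference, in each list up to 4 called and 2 uncalled members, all tested TGF-beta members, the 8 genes in each direction with the largest interaction, and fixed lineage genes and pairs of related genes, not all of which are printed. A few genes are not reported here.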

Additional observations from a re-analysis of the deposited data

Results flagged for a closer look

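For the named genes given here, the difference between mMΦ and microglia was unequal at E14.5 and P10 by the test of that difference itself, edgeR's quasi-likelihood test of the interaction over 12 libraries with adjustment over all genes tested. Values are the log2 fold change at E14.5 minus that at P10, and for genes without counts in 1 group the adjusted p is given in place of a fold change.

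The E14.5 difference lay above that at P10 by 12.36 for Slc39a12, 3.14 for Top2a, 3.03 for Slc2a5, 2.68 for Lpl, 2.40 for Gdf15, 2.39 for Smad3, 1.95 for Mcm5, 1.76 for Igfbp4, 1.64 for Eng, 1.53 for Slc40a1, 1.46 for Ccl24 and 1.37 for Mrc1. Further values above were 1.33 for Plxnb2, 1.32 for Tap1, 1.31 for Itgav, 1.30 for Cdk1, 1.29 for Sirpa, 1.23 for Cx3cr1, 1.18 for P2ry12, 1.03 for Itgb1, 1.03 for Tgfb1, 0.96 for Fcgrt, 0.94 for Cd68 and 0.94 for Cd79b. Smaller values above were 0.93 for Pros1, 0.91 for Tfpi, 0.83 for Entpd1, 0.81 for Unc93b1, 0.79 for Igtp, 0.78 for Siglech, 0.73 for Csf1r, 0.73 for Ptgs1, 0.68 for Cdkn1a, 0.67 for Selenop, 0.66 for Nrros and 0.66 for P2ry6. Then came values of 0.61 for P2ry13.

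The E14.5 difference lay below that at P10 for Psmb8 (−0.58), Dab2 (−0.74), Ly6e (−0.74), Bst2 (−0.77), Ctsb (−0.78), Ldha (−0.78), H2-DMa (−0.87), Msmo1 (−1.15) and Cd36 (−1.30). Further genes below were Olfml3 (−1.48), Lyve1 (−1.62), Ccl4 (−1.64), Pf4 (−1.66), Btg2 (−1.75), Bambi (−2.05), Fosb (−2.17), Plaur (−2.18) and Cxcl16 (−2.21). Larger shifts below were found for Klf2 (−2.25), F13a1 (−2.25), Pmepa1 (−2.29), Klf4 (−2.32), Apoe (−2.54), Anxa2 (−2.56), Ccl7 (−2.57), Ccl3 (−2.65) and Tgif1 (−2.67). Next were Pltp (−2.96), Skil (−2.99), Nr4a1 (−3.22), Clec10a (−3.45), Cxcl2 (−3.61), Il1a (−3.92), Cd163 (−4.09), Cd4 (−4.37) and Ms4a4a (−4.44). Also below were Il1b (−4.61), Bmp2 (−4.79), Ms4a7 (−5.44), Col1a2 (−5.46), Colec12 (−5.52), Ifi203 (−6.05), Cd38 (−6.18), Ifi207 (−6.30) and Timd4 (−6.89). Then followed H2-Aa (−8.10), Cd209a (−8.39), Cd28 (−9.65) and Retnla (−11.42). For Cd209a, Cd28 and Retnla at least 1 group had hardly any counts, so the size of these values is not exact. The same may hold for other genes with extreme fitted values. Among them are Slc39a12 (−8.21 at P10), Bmp2 (12.99 at P10), Timd4 (12.28), Cd38 (12.06) and Colec12 (11.23).

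Among genes with a group at no counts, the E14.5 difference lay above that at P10 for Kntc1 (adjusted p = 0.0009), Tspan32 (adjusted p = 1.19e-05), Nhlrc1 (adjusted p = 0.0415), Aunip (adjusted p = 0.000901), Zfp783 (adjusted p = 0.0011), Pidd1 (adjusted p = 0.00379), Pvrig (adjusted p = 0.00372) and E2f2 (adjusted p = 0.00131). Likewise it lay below for Thbd (adjusted p = 0.00524), Chst1 (adjusted p = 0.0317), Serpinb8 (adjusted p = 0.0101), Apod (adjusted p = 0.0354), Mog (adjusted p = 0.0298), Unc5cl (adjusted p = 0.028), Cd40 (adjusted p = 0.00276), Il1rn (adjusted p = 0.00206) and Bhlhe40 (adjusted p = 0.00293).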

How the results depend on the processing

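The call count of 2432 was 3099 by DESeq2's Wald test, 2949 by limma and 415 (224 higher, 191 lower) with the spread shared over 45 libraries. On leaving out 1 library it ranged from 1714 to 2293, with 899 to 1201 higher and 808 to 1092 lower. The interaction count of 1194 was 1810 by DESeq2's Wald test, 62 with P3 in place of P10, 84 with 45 libraries and 755 without mMΦ replicate 3, with a range of 755 to 1190 on leaving out 1 library. Of the named genes 192 were called, against 105 with 45 libraries and 169 to 179 on leaving out 1 library. List members called numbered 542 of 1084, against 207 with 45 libraries and 449 to 533 on leaving out 1 library. Over all genes tested the share called was 19.4%, and 2.43% with 45 libraries. The lists were chosen with earlier results of these data known, so their share is no independent result. With P3 in place of P10 the interaction of Il1rn was 1.74 and that of Pvrig −0.50, reversed in sign. Neither was called in edgeR's quasi-likelihood test (adjusted p = 0.378 and 0.9), and the cause was not tested. A block on replicate number gave 1966 calls (1015 higher, 951 lower) and 858 for the interaction. Whether replicate numbers pair the samples cannot be told from these data. Deviations of same-numbered libraries correlated at 0.06, −0.01 and 0.12, and those of differently numbered libraries at −0.129 to 0.0647. The sex genes were left out of this check, and same-numbered libraries had the RNA of the same sex. The main fit did not pair them. Having 3 libraries a group limits the precision, and p-values measure the spread between these libraries.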
